A study of Homo sapiens with 12 samples.

Results

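The haematopoietic tyrosine phosphatase gene PTPN7 and 7 related phosphatase genes (PTPN6, PTPN11, PTPN1, PTPN2, PTPN12, PTPN18 and PTPRC) were followed through the m6A maps of METTL16 knockout leukaemia cells. Their windows were found by gene name in the authors' deposited tables of differential m6A. They made up 162 of 296568 windows over 4 tables, and 8 of 16417 gene names. The genes were chosen by measured values: PTPN7 was taken because a window at its 3′ end was called more methylated in all 4 tables, and the others because they belong to the same enzyme family. Differences between knockout and control at these genes are therefore given as a description, with no test. Enrichment in the immunoprecipitate was not itself part of the choice. It may still not be independent of it, since a small change is called only at a precisely measured window.

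The cells were NOMO-1, a human acute monocytic leukaemia line. They carried a lentiviral guide RNA against METTL16 (sgMETTL16-1 or sgMETTL16-2) or a control guide (sgNS), and all 3 kinds were selected in puromycin. The labels do not say whether clones were picked. Methylated RNA immunoprecipitation followed by sequencing (MeRIP-seq) was done on 2 replicates of each guide, each as an input and an immunoprecipitated (IP) library, which makes 12 libraries. What was used here is 1 finished comparison table per knockout guide and replicate number. The tables hold no value per library, so depth is unknown and the spread between libraries cannot be given. Tables of 1 replicate number may rest on the same sgNS libraries, and are shown side by side.

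METTL16 is an RNA methyltransferase that places m6A on U6 small nuclear RNA and on hairpins of the MAT2A transcript, while most m6A in messenger RNA is placed by the METTL3-METTL14 complex near stop codons and in 3′ untranslated regions. Protein tyrosine phosphatases remove phosphate from tyrosine and oppose the tyrosine kinases that drive myeloid growth. PTPN7 (HePTP) is a cytosolic phosphatase of blood cells that binds and inactivates the MAP kinases ERK and p38. PTPN6 (SHP-1) and PTPN11 (SHP-2) carry SH2 domains. PTPN1 (PTP1B) and PTPN2 (TC-PTP) act on JAK kinases and receptors, PTPN12 (PTP-PEST) and PTPN18 are PEST-type enzymes that bind PSTPIP adaptors, and PTPRC (CD45) is the receptor phosphatase of leukocytes.

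Each window in the authors' deposited tables has a fold enrichment of IP over input, a log2 fold change of m6A and a false discovery rate (FDR) for both. A positive fold change is read here as more m6A in the knockout, a sign convention that the tables do not spell out. A window is called where the FDR of its difference was under 0.05, and enriched where the FDR of IP over input was under 0.05. The tables held 70002 to 79372 windows, of which 6426 to 8586 were enriched. Of 13 monocytic and myeloid marker genes, 12 had a window in every table, whereas CD3D, CD3E, CD3G, MS4A1 and the globins had none; of the 10 lymphoid markers 4 had a window, and of the erythroid markers EPOR and KLF1 had windows in all 4 tables, with 1 or both genes enriched. METTL16 had 5 to 7 windows per table and none was called, which does not check the knockout because a window's m6A change is not a transcript level.

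The 8 genes differed in whether any of their windows passed the enrichment threshold. That threshold is an FDR and does not rank how strongly RNA was captured. PTPN7, PTPN12 and PTPN18 had an enriched window in all 4 of the authors' deposited tables, PTPN6 in 3 and PTPN11 in 2. PTPN1, PTPN2 and PTPRC had none in any table. Of the members' 48, 37, 43 and 34 windows (sgMETTL16-1 replicates 1 and 2, then sgMETTL16-2 replicates 1 and 2), 5, 8, 7 and 11 were enriched in the authors' deposited tables, or 10.4%, 21.6%, 16.3% and 32.4%. Over all windows the shares were 8.10%, 11.9%, 10.2% and 12.3%. Windows of 1 gene share a transcript, so these shares are a description. The most enriched PTPN7 window had a fold enrichment of 2.05 ± 0.355 (SD, n = 4 tables) in the authors' deposited tables. The corresponding values were 1.92 ± 0.247 for PTPN18, 1.67 ± 0.176 for PTPN12 and 1.23 ± 0.0794 for PTPN6 in the authors' deposited tables. The order of PTPN7, PTPN18 and PTPN12 is not clear of their spreads, and PTPN6 lay below all of these, its highest value being 1.31 and the lowest of PTPN12 being 1.44. The corresponding value for PTPN11, which was enriched in 2 tables, was 1.52 ± 0.433 in the authors' deposited tables.

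**Figure D1:**
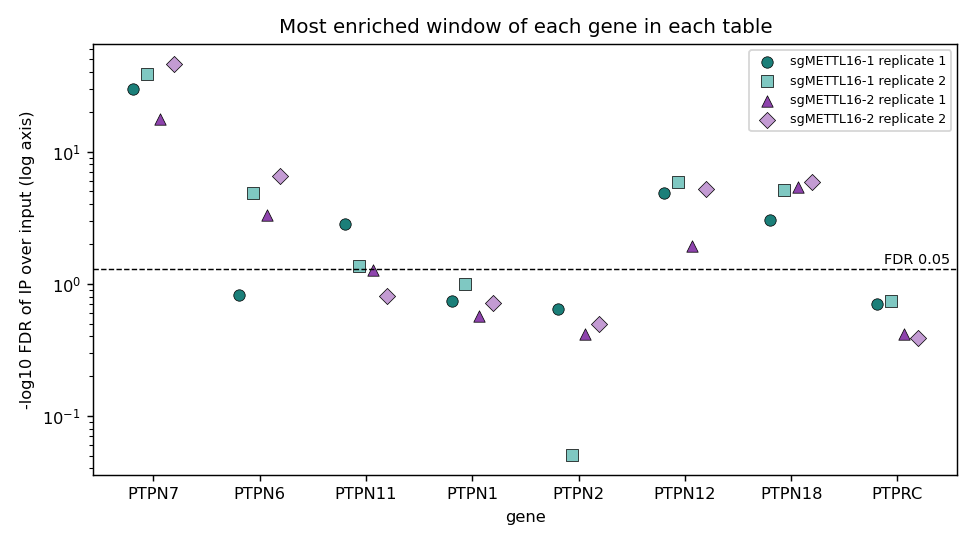
Each point is the most enriched window of 1 gene in 1 table, as −log10 of the FDR of IP over input on a log axis; the dashed line is an FDR of 0.05. PTPN7 lies far above the others in every table, PTPN12 and PTPN18 lie above the line in all 4, and PTPN1, PTPN2 and PTPRC lie below it in all 4.

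Among the 162 windows of the 8 genes, 5 were called higher and 2 lower in the authors' deposited tables. All 5 higher calls were in PTPN7 and both lower calls in PTPN12. Per table there were 1, 1, 2 and 1 higher calls and 0, 0, 2 and 0 lower calls. The share of all windows called higher was 0.0743%, 0.583%, 0.875% and 0.586%, and the share called lower was 0.281%, 0.167%, 0.965% and 0.149%, in the authors' deposited tables. Since PTPN7 was picked for its calls, nothing is read from the comparison. The median log2 fold change of the members' windows was 0.00, -0.03, 0.04 and 0.01 in the authors' deposited tables, against 0 over all windows in each table. Over enriched windows alone it was 0.02, 0.17, 0.05 and 0.08 for the members and -0.04, 0.13, 0.13 and 0.13 for all genes.

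**Figure D2:**
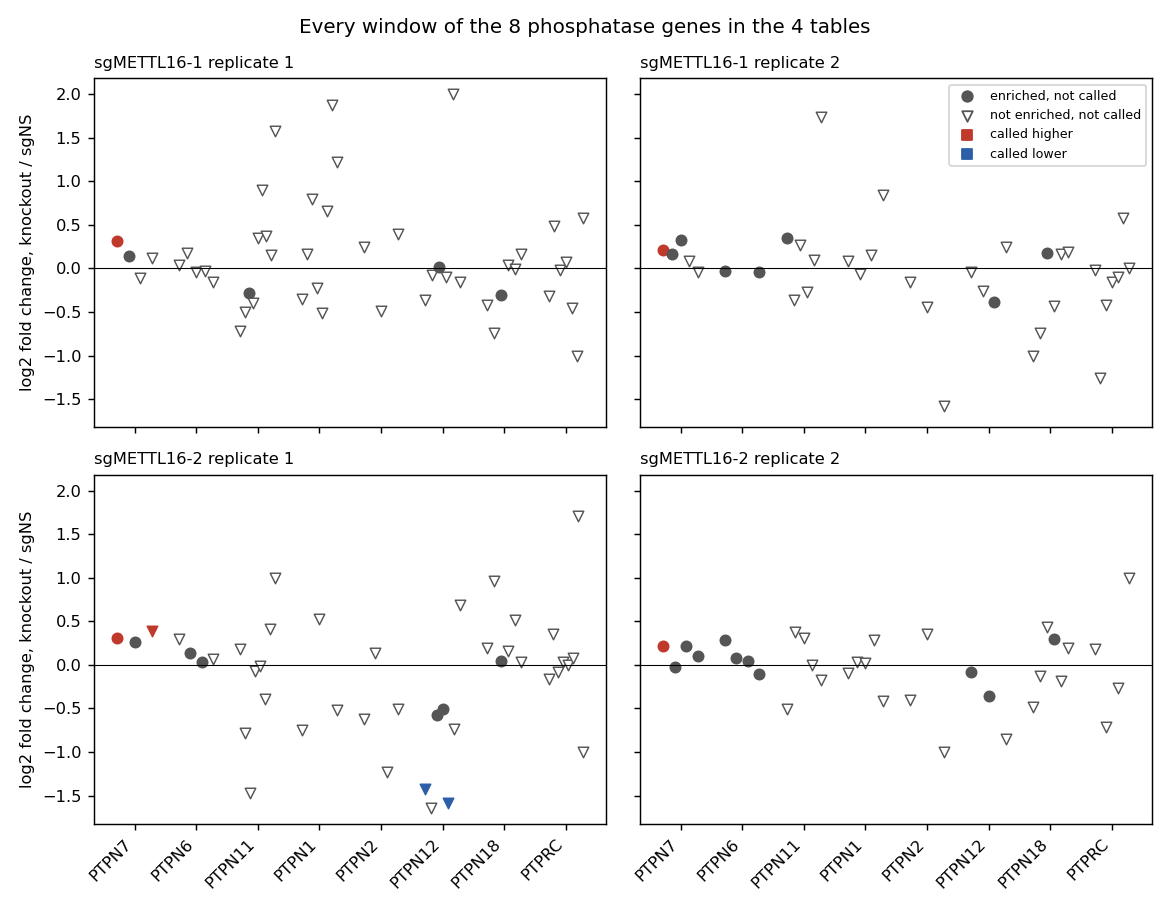
Each symbol is 1 window, with its log2 fold change of m6A (knockout over sgNS) on the vertical axis and 1 panel per table; circles are enriched in the IP, triangles are not. The filled red circle of PTPN7 is the 3′ window, at 0.32, 0.21, 0.31 and 0.22, and the scatter of the other genes comes mostly from windows that were not enriched, between -1.64 and 2.00.

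PTPN7 (RefSeq gene 5778) lies on the minus strand of chromosome 1 at 202147013 to 202161588 (GRCh38.p14). Its called 3′ window was chr1:202147013-202148117 for sgMETTL16-1 replicate 1 and chr1:202147013-202148177 for replicate 2. For sgMETTL16-2 it was chr1:202147013-202148087 in replicate 1 and chr1:202147013-202148177 in replicate 2. It was a single uninterrupted block of 1075 to 1165 bases that ended exactly at the annotated 3′ end of the gene in each of the authors' deposited tables. Exon and UTR boundaries were not used here. Windows of PTPN6 also stopped at the annotated 3′ end of their gene in each table, and a window of PTPN2 and of PTPRC in 1 table each.

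The log2 fold change of this window was 0.32, 0.21, 0.31 and 0.22 in the authors' deposited tables, in the order given above. Their mean was 0.27 ± 0.06 (SD, n = 4 tables). The FDR was 8.13e-05, 0.0309, 8.32e-05 and 0.0229 in the authors' deposited tables. Both replicate 1 tables gave the larger changes and both replicate 2 tables the smaller ones, and the guides did not separate. A standard error worked back from the deposited p-values, read as one-sided, was 0.0615, 0.0607, 0.0632 and 0.0609. With the p-values made two-sided and the FDR recomputed from them, 2 of the 4 calls remained (both replicate 1 tables). The FDR became 0.0830 for sgMETTL16-1 replicate 2 and 0.0616 for sgMETTL16-2 replicate 2. The recomputed adjustment also differed from the deposited one, and its part in these losses was not separated from the two-sided step. After subtracting the median change of all enriched windows as well, 1 call remained (sgMETTL16-1 replicate 1). The window's fold enrichment of IP over input was 1.82, 1.97, 1.83 and 2.57 in the authors' deposited tables. By FDR of IP over input it ranked 70, 107, 330 and 63 among all windows of its table.

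**Figure D3:**
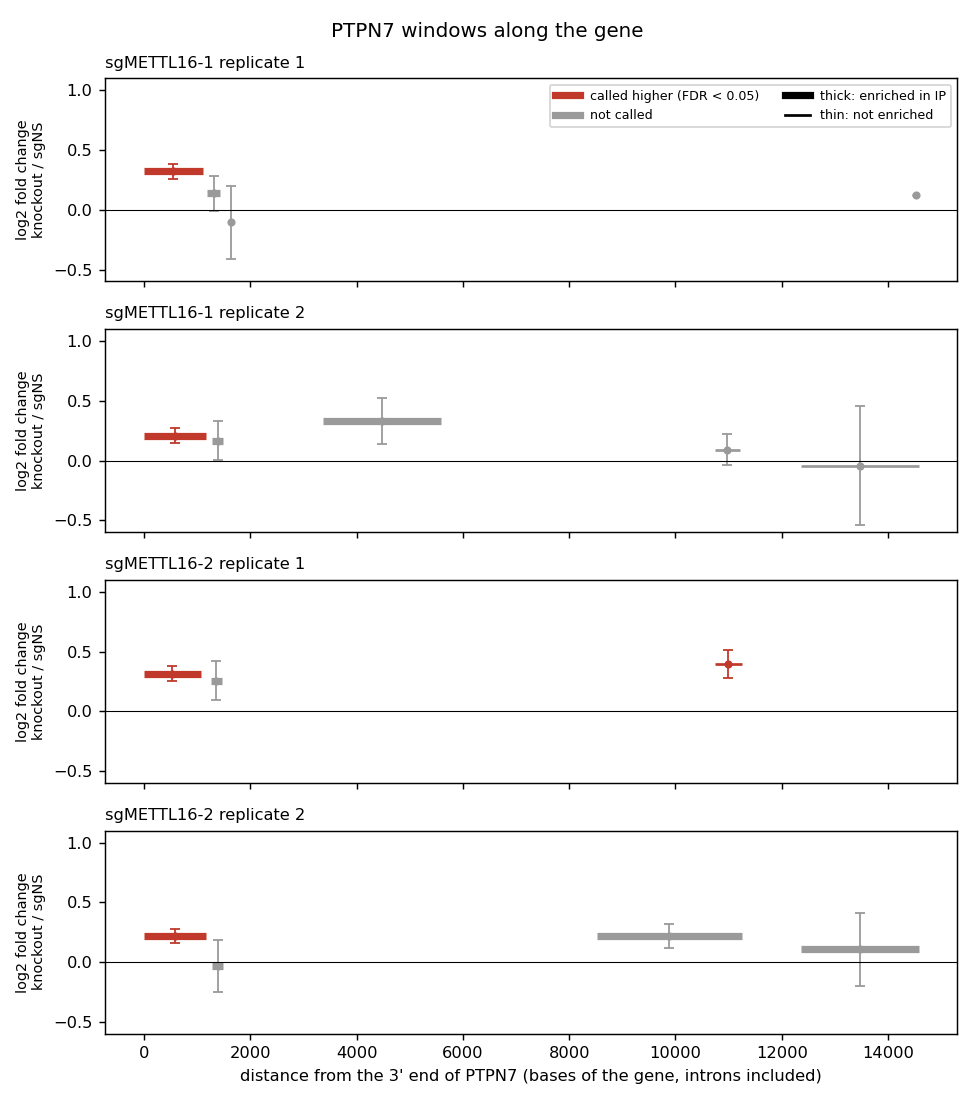
PTPN7 windows by distance in bases from the gene's 3′ end (horizontal, introns included) and log2 fold change of m6A (vertical), 1 panel per table; bars span the window, and error bars are ± 1 approximate standard error, drawn only where the p-value allows one. The red bar at the 3′ end recurs in all 4 panels, between 0.21 and 0.32. An uncalled window just upstream of it also recurs in all 4, between -0.03 and 0.26, and the other windows do not appear in every panel.

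The remaining PTPN7 windows had a lower fold enrichment than the 3′ window in each table, but not always a smaller change. A window at chr1:202150385-202152592 in sgMETTL16-1 replicate 2 was 0.33, above the 0.21 of the 3′ window there. It was enriched (FDR of IP over input 0.00417) but not called (FDR 0.593). Just upstream of the called window, the authors' deposited tables listed a window of 210 to 240 bases with log2 fold changes of 0.14, 0.17, 0.26 and -0.03 (0.13 ± 0.12, SD, n = 4 tables). It was enriched in all 4 and called in none, with an FDR of 0.466 to 0.658. The fifth PTPN7 call, at chr1:202157752-202158255 in the 5′ part of the gene, 3333 bases from its annotated start, was 0.39 (FDR 0.0214) in the authors' deposited table of sgMETTL16-2 replicate 1. That window was not enriched there (fold enrichment 1.12, FDR 0.132), and its counterpart for replicate 2 of the guide was 0.22 with an FDR of 0.351. In total PTPN7 had 16 windows, 11 of them enriched, and 13 had a fold change above 0.

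Windows of PTPN7 and PTPN1 near their transcription start sites overlapped promoter sequences that could be read. A PTPN7 window spanning chr1:202159383-202161588 was listed for replicate 2 of both guides, and was enriched for sgMETTL16-2 replicate 2 (fold enrichment 2.10, log2 fold change 0.11) in the authors' deposited tables. It had 2 blocks, 270 bases in all, and began at the annotated start of the gene, 202161588. The start site used below, 202159454, lies downstream of that. Other PTPN7 start sites held, 202159989 and 202160602, had 0 of their first 50 bases inside it. A PTPN1 window at its start site was listed in all 4 tables and enriched in none. The first 30 bases transcribed from 1 start site per gene are shown, since they are stretches under these windows that the RefSeq promoter table (GRCh38.p14) holds. Capitals mark the bases inside the deposited window, and no sequence of the called PTPN7 3′ window is printed.
PTPN7, chr1:202159425-202159454, minus strand: gcagACCTCATGGCTGAGTGAGCCTCCCCT
PTPN1, chr20:50510383-50510412, plus strand: ATGAAGAAGCAGCAGCGGCTAGGGCGGCGG
In PTPN7 26 of the 30 bases were inside the window, and in PTPN1 all 30. Neither stretch contains GGAC, the core letters of the METTL3-METTL14 motif. In the first 50 transcribed bases on the sense strand GGAC occurred in 18.9% of 35116 start sites in the table, and in 3 of the 10 start sites held for the members (1 each of PTPN7, PTPN18 and PTPN6). GGACT occurred in 4.90% of all and in none of the 10, and TACAGAGAA, the letters of the METTL16 hairpin motif, in 0.0313% and in none of the 10. On either strand of the 300 bases around a start site (250 before, 50 after) the shares were 87.4%, 44.2% and 0.316% over all start sites, and 8, 3 and 0 of the members' 10. GGACT matches are also GGAC matches.

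The PTPN7 window can be set beside other enriched windows of its length. Among enriched windows of 1000 bases or more, the authors' deposited tables called 1.44%, 15.0%, 32.0% and 16.1% higher (5 of 348, 82 of 548, 143 of 447 and 96 of 598). Among enriched windows under 1000 bases they called 0.773%, 3.93%, 5.88% and 3.68% higher. The median log2 fold change of the enriched windows of 1000 bases or more was -0.03, 0.20, 0.27 and 0.19 in the authors' deposited tables. For sgMETTL16-1 replicate 1 the percentile of PTPN7 among them was 94.0. In the other tables its percentile was 52.4, 56.4 and 54.3, where 258 of 548, 194 of 447 and 269 of 598 long windows had a larger change. Less the median of long windows, the PTPN7 value was 0.35, 0.01, 0.04 and 0.02. These values describe where PTPN7 lay and are no test, since its fold changes chose it and the length limit was set after the values were seen.

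**Figure D4:**
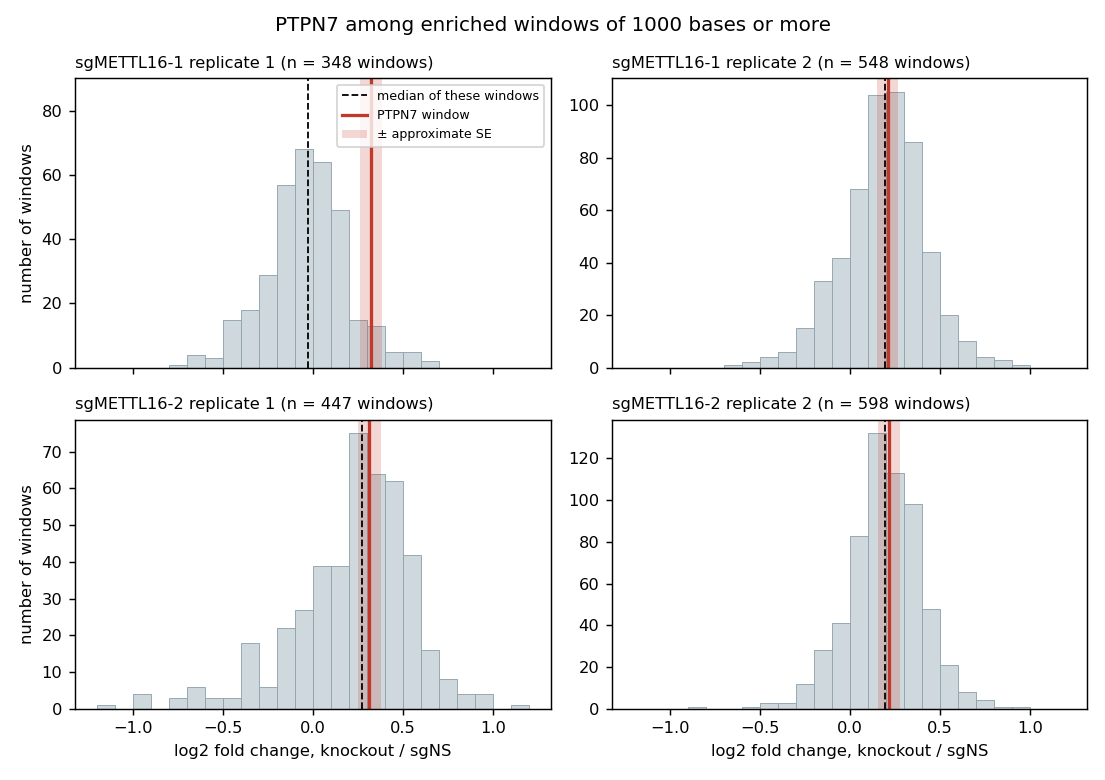
Histograms of the log2 fold change of m6A (horizontal) over enriched windows of 1000 bases or more (vertical: number of windows), 1 panel per table; the dashed line is their median, the red line PTPN7 and the band ± 1 approximate standard error, and values past the axis are counted in the end bins. The red line is 0.35 above the median in the first panel and 0.01 to 0.04 above it in the other 3.

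Agreement between replicate tables can be counted over matched windows. Of the members, 14 windows were matched for sgMETTL16-1 and 18 for sgMETTL16-2, and 1 of each, that of PTPN7, was called higher in both replicates; none was called lower in both. Of all matched windows, the authors' deposited tables called 0.0200% higher and 0.0449% lower in both replicates for sgMETTL16-1 (4 and 9 of 20031). For sgMETTL16-2 these shares were 0.529% and 0.0613% (112 and 13 of 21192). Called higher in all 4 tables were 3 of 6879 windows matched in all 4 (0.0436%), PTPN7 among them by the way it was chosen. Measured by distance over the 4 log2 fold changes, the windows most like that of PTPN7 among 2091 matched and enriched in all 4 tables were those of MRFAP1 (0.0920), ARID1B (0.104), SPSB1 (0.105), GPAT4 (0.107) and TMED9 (0.110). The MRFAP1 values were 0.32, 0.21, 0.29 and 0.13, and 2 of these were called higher in the authors' deposited tables. ARID1B and SPSB1 had 1 call each, and GPAT4 and TMED9 none, so a profile close to that of PTPN7 often stayed uncalled.

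Of the SH2-domain pair, PTPN6, which is abundant in myeloid cells and damps cytokine receptor signals, had 15 windows and 8 enriched ones (chromosome 12, 6946577 to 6961316). None was called, and its log2 fold changes stayed between -0.15 and 0.30 in the authors' deposited tables. A window made of several blocks near 6955483 to 6956449 had fold changes of -0.04, -0.03, 0.14 and 0.08 in the authors' deposited tables. A second window near the 3′ end, at 6960346 to 6961196 in the first table, had -0.03, -0.04, 0.03 and 0.05. Both were slightly below 0 in both sgMETTL16-1 tables and slightly above 0 in both sgMETTL16-2 tables, a difference that was not tested. Approximate standard errors there were 0.0841 to 0.121, larger than most of these values. The split by guide was not kept after subtracting the median change of all enriched windows. PTPN11, which relays growth factor signals to RAS, had 28 windows and no call (chromosome 12, 112418947 to 112509918). Its enriched windows were 1 in each sgMETTL16-1 table, with log2 fold changes of -0.28 and 0.35 in the authors' deposited tables. The PTPN11 window closest to a call, at 112502169 to 112506114, was -0.79 (FDR 0.0575) in the authors' deposited table of sgMETTL16-2 replicate 1, and was not enriched.

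The JAK-directed phosphatases gave no enriched window. PTPN1 had 20 windows with log2 fold changes of -0.75 to 1.88, and PTPN2 (chromosome 18) had 13 with -1.58 to 0.39, in the authors' deposited tables. The PTPN1 start-site window had a fold enrichment of 5.94, 2.03, 3.80 and 1.77, yet the FDR of IP over input was not under 0.05 in any of the authors' deposited tables. Its log2 fold change was -0.35, 0.09, -0.75 and -0.10 in the authors' deposited tables, with both signs among the 4. A high ratio at such a window therefore came without statistical enrichment.

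Both PEST-type genes had an enriched window in every table, and neither had an enriched window that was called. PTPN12, which dephosphorylates the focal adhesion adaptor p130Cas, lies on chromosome 7 (77537295 to 77640069). Its most enriched window per table covered 77627201 to 77627320 in all 4 cases. The log2 fold change there was 0.02, -0.39, -0.51 and -0.36 in the authors' deposited tables, with no call. Of all 20 PTPN12 windows 16 were below 0, and the enriched ones had a median of -0.37. Its lower calls were at 77571127 to 77581456 (90 bases, -1.42, FDR 0.0447) and 77627500 to 77627559 (60 bases, -1.58, FDR 0.0437), both in the authors' deposited table of sgMETTL16-2 replicate 1. Neither was enriched in the IP, with fold enrichments of 1.13 and 1.15. Both calls were lost with two-sided p-values, and also after subtracting the median change of all enriched windows (FDR 0.0595 and 0.0631). Just outside the threshold in the same table was the enriched window at 77618555 to 77627111, with -0.58 and an FDR of 0.0661. The overlapping window for replicate 2 of the guide, at 77618555 to 77626962, was -0.09 (FDR 0.650) in the authors' deposited table.

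PTPN18 (chromosome 2, 130356056 to 130375405) had 1 enriched window in each table towards the 3′ end, and each spanned 130373257 to 130373915. Its fold enrichment was 1.79, 1.86, 2.28 and 1.74, close to that of PTPN7, in the authors' deposited tables. The log2 fold change was -0.30, 0.18, 0.05 and 0.30, with 1 table below 0 and none called; the lowest FDR of any PTPN18 window was 0.282. PTPRC, the leukocyte-wide receptor phosphatase (chromosome 1, 198638713 to 198757476), had 26 windows, none enriched and none called. One PTPRC window matched in all 4 tables had log2 fold changes of 0.07, -0.09, -0.01 and -0.27 in the authors' deposited tables, with no common direction.

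The genes around these phosphatases were counted in 4 lists, and over the 4 tables together 0.522% of all windows were called higher and 0.397% lower, to be read beside each count. Of 29 other classical tyrosine phosphatases, 17 had a window, and 2 windows were called higher and 2 lower of 516 over the authors' deposited tables; the list's median fold change was 0.03 in sgMETTL16-1 replicate 1 and 0 elsewhere. Both higher calls were in PTPN23, at 1.29 (FDR 0.0148) and 0.75 (FDR 0.0138) in the authors' deposited table of sgMETTL16-2 replicate 1, and the overlapping windows for replicate 2 of the guide were 0.02, -0.16 and 0.12 and uncalled. Among MAP kinases, their kinases and dual-specificity phosphatases, 27 of 28 genes had a window and 1 window of 612 was called, with list medians of 0 to 0.03 in the authors' deposited tables. It was in MAPK12 (p38 gamma), at 0.63 (FDR 0.0178) in the authors' deposited table of sgMETTL16-2 replicate 1; the overlapping window for replicate 2 was 0.01. Of the known PTPN7 substrates, MAPK3 (ERK1) had 13 windows with 5 enriched and MAPK14 (p38 alpha) 19 with 2 enriched. Neither had a call, and their lowest FDR of difference was 0.491 and 0.562 in the authors' deposited tables.

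Tyrosine kinases, STATs and adaptors had a window in 35 of 36 genes, with 5 windows called higher and 4 lower of 850 over the authors' deposited tables, and list medians of -0.02 to 0. The higher calls were in CSK, PXN, STAT6, SYK and WAS, and the lower ones included LYN and TYK2. TYK2, a JAK family kinase, was called lower at -1.25 (FDR 0.0178) for sgMETTL16-1 replicate 2 and at -1.22 (FDR 0.00891) for sgMETTL16-2 replicate 2 in the authors' deposited tables, at separate places in the gene. Neither TYK2 window was enriched in the IP. Receptors and ligands that recruit or bind these phosphatases had a window in 14 of 18 genes, with 4 windows called higher and 1 lower of 230, and list medians of -0.12 to 0.03.

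SIRPA, the receptor that recruits PTPN6 and PTPN11 to restrain phagocytes, was the most called of these receptors. Its window on chromosome 20, at 1937392 to 1938405 in sgMETTL16-1 replicate 2, had log2 fold changes of -0.08, 0.34, 0.27 and 0.18 in the authors' deposited tables. The FDR was 0.655, 7.08e-05, 0.00813 and 0.168, so it was called higher in 1 table of each guide. The window was enriched in all 4, with a fold enrichment of 1.88, 2.32, 2.15 and 2.33 in the authors' deposited tables. LAIR1 and LGALS1 were the other genes with a higher call, and PECAM1 had the lower one. No gene of the 4 lists had calls of like sign in both replicates of either guide. Such calls were rare over all matched windows too, at 0.0200% higher and 0.0449% lower for sgMETTL16-1. For sgMETTL16-2 they were 0.529% and 0.0613%, so nothing about the lists is read from their absence.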

How the data were processed

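The submitters' processing notes name STAR and the GRCh38 build for the MeRIP-seq libraries of NOMO-1 cells. For versions, peak caller, annotation and the sgNS libraries behind each table, details were not given in the sources used here. For each knockout guide and number the authors deposited a comparison table, the number being read here as the replicate number, with a log2 fold change of m6A, a fold enrichment (a ratio of IP to input), a p-value per window, and log10 scores of p and FDR for IP over input and for the difference. Depth per library is unknown, and replicates are only labelled as such, so their spread may be technical. No count model could be fitted.

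Windows were taken by gene name, 0-based starts shifted to 1-based, and matched pairwise between tables on chromosome, strand, name and a reciprocal overlap of at least 0.5 of their bases. The deposited FDR is adjusted over all windows of its table. For two-sided or shifted p-values the FDR was recomputed over all windows of the table by the Benjamini-Hochberg method. Recomputed in this way from the deposited p-values, the FDR differed from the deposited one by up to 0.224 in log10. The deposited p-values were read as one-sided, which the labels and headers do not state. The standard errors, the two-sided p-values and the shifted FDR all rest on that reading. The approximate standard error is the absolute log2 fold change over the normal quantile of the p-value, and is left out at p of 0.5 or more. Matching and standard error were tested on simulated data. Start sites and gene ends came from RefSeq tables of GRCh38.p14, in which all 8 genes matched; promoter sequences were held for 7.

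The genes, the lists and the marker genes were chosen with earlier results of these data known. Named were all members, their called and most enriched windows, the 5 windows nearest to PTPN7, and, of each list, genes called alike in both tables of a guide, or else the most called gene. Alternatives were a stricter FDR of 0.01, a fold change minimum of 0.5, a fold enrichment of at least 2, enriched windows alone, a shift by the median of enriched windows, two-sided p-values, overlaps of 0.3 and 0.8, and single replicates. Python 3.11.15, pandas 2.3.3, numpy 2.4.6, scipy 1.17.1 and matplotlib 3.10.9 were used. Some genes of the lists are not reported here.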

Additional observations from a re-analysis of the deposited data

Results flagged for a closer look

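Both PTPN6 windows matched in all tables were picked out because their deposited log2 fold changes had opposite signs for the guides. The window near 6955483 to 6956449 of chromosome 12 was -0.0414 and -0.0309 in the tables of the first guide, sgMETTL16-1, against 0.14 and 0.0751 in those of sgMETTL16-2. The window near 6960346 to 6961196 stood at -0.0334 and -0.0441 with sgMETTL16-1, against 0.0306 and 0.047 with sgMETTL16-2. The difference between guides was not tested, and no value was called. In sgMETTL16-1 replicate 1 neither window was enriched (FDR of IP over input 0.184 and 0.152). The signs no longer split by guide after subtracting the median change of all enriched windows. In the order of tables used above, the first window then stood at -0.0035, -0.1649, 0.015 and -0.0599. The second stood at 0.0045, -0.1781, -0.0944 and -0.088.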

How the results depend on the processing

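The calls of the PTPN7 3′ window depended on the threshold. Its sign was part of the choice, and only the median shifts and the removal of a replicate could alter its mean. Its mean log2 fold change was 0.266, and it was called in 4 of 4 tables as deposited and in 2 of 4 at an FDR of 0.01. It was also called in 2 of 4 with two-sided p-values and the FDR recomputed. With a fold enrichment of at least 2 it was called in 1 of 4, and in 0 of 4 where a change of 0.5 or more (log2, either sign) was required. Shifted by the median of enriched windows, with two-sided p-values, the mean was 0.177 and 1 of 4 tables, sgMETTL16-1 replicate 1, kept the call. Shifted by the median of enriched windows of at least 1000 or 500 bases, alternatives chosen after seeing the data, it was 0.107 and 0.148, again with 1 of 4. Without 1 replicate number the mean ranged from 0.214 to 0.318, and the calls of the remaining tables could not change.

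Counts of called member windows were 1, 1, 2 and 1 higher (sgMETTL16-1 replicates 1 and 2, sgMETTL16-2 replicates 1 and 2) and 2 lower in sgMETTL16-2 replicate 1. They became 1, 0, 1 and 0 higher at an FDR of 0.01, and the same with two-sided p-values and the FDR recomputed. After the shift by the enriched median they were 1, 0, 0 and 0, and at 2-fold enrichment or more 0, 0, 0 and 1. With a change of 0.5 or more required they were 0 in all 4, and over enriched windows alone 1, 1, 1 and 1. For most of these alternatives the share of all windows called is not given here, so the falls are not read as a result about the members. The 2 lower calls of PTPN12 became 0 at an FDR of 0.01, over enriched windows alone, at 2-fold enrichment or more and with two-sided p-values. After the shift the count stayed at 2 lower but the windows differed: both PTPN12 calls were lost (FDR 0.0595 and 0.0631), and the enriched PTPN12 window at 77618555 to 77627111 (0.0357) and a PTPN11 window at 112502169 to 112506114 (0.0460) were called instead. The 1 member window called higher in both tables of each guide became 0 at an FDR of 0.01, with a fold change or fold enrichment minimum, after the shift and with two-sided p-values; read from a single table of sgMETTL16-2 the count was 1 to 2 higher and 0 to 2 lower, and of sgMETTL16-1 it was 1.

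The members' median log2 fold change, averaged over the tables of a guide, was -0.0142 for sgMETTL16-1 and 0.0231 for sgMETTL16-2; it was 0.0936 and 0.0619 over enriched windows alone, and 0.0628 and -0.0635 at 2-fold enrichment or more. At an FDR of 0.01 the genes called in any table fell from 3 to 1 for other tyrosine phosphatases and from 1 to 0 for MAP kinases. They fell from 8 to 3 for tyrosine kinases, STATs and adaptors, and from 4 to 3 for receptors and ligands. The share of all genes called is not given here at either threshold, so these counts are not read as a result about the lists. Fewer windows were tested under the enrichment minimums; otherwise the cause was not tested. No paired analysis was possible because the tables hold finished comparisons with no value per library, and without depth no limit of detection can be given.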
